A study of Rattus norvegicus with 24 samples.

Results

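Rat cortical cultures given the agent IS141 were compared after exposure to glutamate and after an exchange of fresh growth medium, with 3 libraries in each group. The 6 libraries, of 24 in the series, were chosen by their titles and not by any measured value. One group received 250 μM glutamate in addition to IS141. The other received medium without glutamate in addition to IS141, so both groups carry the agent. The remaining libraries of the series came from cultures given DMSO, AH609 or AH236, each with glutamate or medium. They enter the shared fit and the later contrasts. Cells had been kept for 8 days, and the wells were imaged for 4 h from the medium exchange. IS141 is known here by its code name alone. Its dose, its timing, its target, the age of the animals and the time of RNA collection are not stated. The labels do not say whether replicates are separate cultures, and the p-values below therefore rest on a library-to-library spread that can be technical. In bulk RNA, fewer cells of a type and less RNA per cell cannot be told apart.

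Glutamate is the main excitatory transmitter of the brain. It opens ionotropic receptors, of which the NMDA type lets calcium into the neuron, and the calcium signal passes through kinases to the nucleus, where it switches on immediate early genes and then later ones. Prolonged or excessive exposure overloads neurons with calcium and injures them, which is called excitotoxicity and can be modelled in cortical cultures. The deposited table gives Ensembl gene IDs, and the annotation used here pairs none of them with a symbol. The results are therefore given for groups of genes defined by direction, size of change and level, and 4 genes are given by ID. The cortical cell label could not be checked against marker genes for the same reason.

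The libraries of both groups were alike in depth, with 27995577 to 28975540 counts in glutamate and 24795819 to 27976984 in medium. Pearson's r of log2 CPM (counts scaled to library size) across the 15908 genes tested was 0.9928 to 0.9943 within the glutamate group, 0.9925 to 0.9938 within the medium group, and 0.9611 to 0.9634 between them. Genes are not independent replicates, and these coefficients are descriptive. Replicates differed by more than sampling noise, with a chi-square per degree of freedom of at least 7.19 in every pair within a group. The median standard deviation of a gene between replicates was 0.0995 log2 CPM in glutamate and 0.0930 in medium. Outside this comparison, DMSO replicate 1 in medium stood apart: its r with the other libraries of its group was 0.9823 and 0.9828, against 0.9925 to 0.9950 in the other 22 pairs within a group. It enters the shared estimate of the spread and the contrast with DMSO cultures, and values without it are given where it matters.

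Most genes tested changed with glutamate in IS141 cultures. By edgeR's quasi-likelihood test at a Benjamini-Hochberg adjusted p under 0.05, 9408 genes were called, or 59.1% of those tested. Of these, 4593 rose (28.9%) and 4815 fell (30.3%). The typical called gene changed little. The median log2 fold change was 0.56 among genes that rose and -0.54 among genes that fell, each with a median standard error of 0.0874, and 77.5% of called genes changed by less than 2-fold. The balance tipped toward rises as the size grew. Called rises of 2-fold or more numbered 1282 (8.06%), with 833 falls of that size (5.24%). For 4-fold or more there were 391 rises (2.46%) and 68 falls (0.427%), and for 8-fold or more 147 rises (0.924%) and 8 falls (0.0503%). A further 140 genes changed at least 2-fold without passing the test.

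The calls followed the separation of the single libraries. All 3 glutamate values lay above all 3 medium values for 5196 genes (32.7%), and below them for 5365 (33.7%). Of the called genes, 4453 of those that rose and 4690 of those that fell were separated in this way, and the values of the other 140 and 125 overlapped between the groups.

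Fold changes are relative to TMM scaling, which assumes that most genes do not change. With library totals as the only scaling the median over all genes tested moved to a log2 fold change of -0.19, against 0.00091 with TMM. Rises then numbered 2854 and falls 7032, and at least 2-fold there were 1000 rises and 1382 falls. Falls outnumbered rises with both scalings, by far more with library totals. Among changes of at least 2-fold the more frequent direction reversed, from rises with TMM to falls with library totals. RLE size factors gave 4712 rises and 4704 falls, and 1304 and 809 at least 2-fold. DESeq2 gave 4577 rises and 4548 falls, and 1259 and 790 at least 2-fold.

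**Figure D1:**
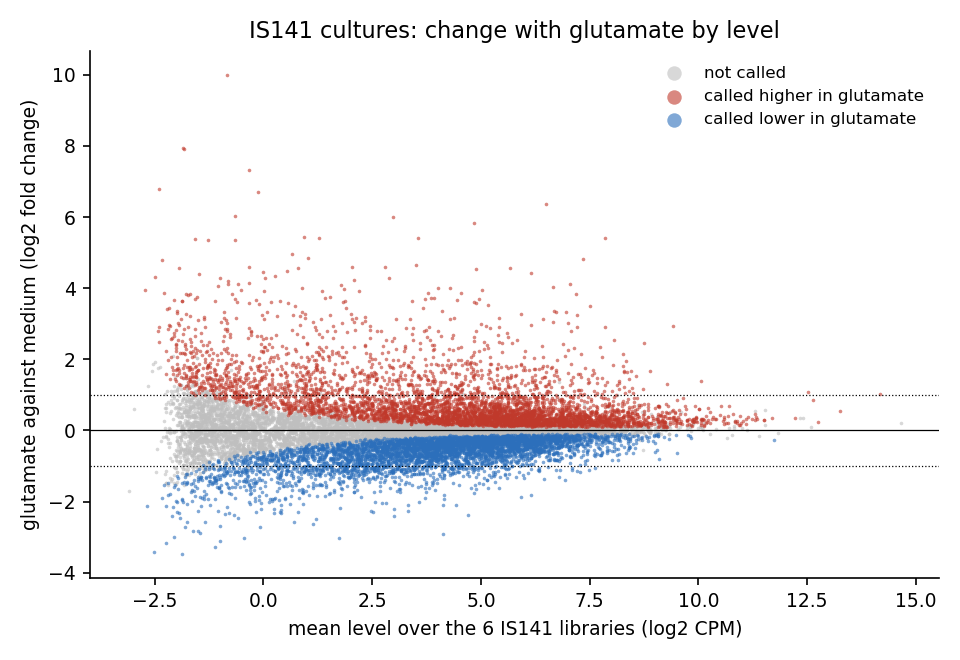
Each point is 1 of the 15908 genes tested, placed by its mean level over the 6 IS141 libraries (log2 CPM) and by its log2 fold change in glutamate against medium, and coloured by call. Dotted lines mark 2-fold, past which 1282 called genes lie above and 833 below.

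Direction and size varied with the level of a gene. Genes were divided into 4 classes of 3977 by their mean over the 6 libraries. The lowest class, with means up to 1.22 log2 CPM, held 590 of the called rises of at least 2-fold and 376 of the falls, although 36.0% of its genes were called. The highest class, with means from 5.59 log2 CPM, had 70.3% of its genes called, yet held 180 rises and 31 falls of at least 2-fold, and no fall of 4-fold or more. In this class rises outnumbered falls, with 1688 and 1109, while in the second class falls outnumbered rises, with 944 rises and 1540 falls. The third class had 1174 rises and 1520 falls. With library totals as the scaling, falls outnumbered rises in every class, at 1882 falls and 903 rises in the highest, but that class still had more rises than falls of at least 2-fold (144 and 71). Precision differs along this axis. The median standard error of a log2 fold change was 0.354 in the lowest class and 0.0567 in the highest, so a change had to be larger to pass the test in the lowest class. The expression filter also kept a weak gene that reached its threshold in a single group. Genes near the floor could thus enter through the group where they were high. The number of large changes in the lowest class is therefore partly set by the filter and is a description.

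**Figure D2:**
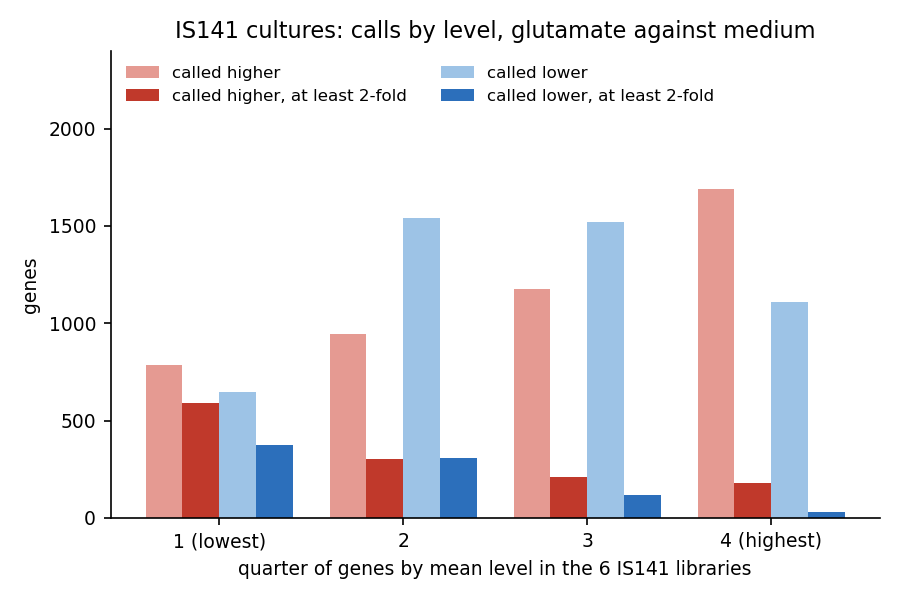
Bars give the number of genes called higher or lower in glutamate than in medium, in all and at least 2-fold, for each of 4 classes of 3977 genes by mean level. In the highest class 1688 genes were called higher and 1109 lower, while the lowest class held the most changes of at least 2-fold, with 590 higher and 376 lower. Weak genes could pass the expression filter through a single group where they were high.

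The RNA pool was also more uneven in the glutamate libraries than in the medium libraries of IS141. The 100 genes with most counts took 25.7%, 26.0% and 26.7% of all counts in the glutamate libraries, against 22.8%, 23.6% and 23.6% in the medium libraries. The number of genes needed to reach 50% of all counts was 617, 615 and 602 in glutamate, against 767, 748 and 755 in medium. The groups did not overlap in either measure, and each two-sided exact permutation test gave p = 0.1, the smallest that 3 against 3 libraries allow. At the same time more genes were seen. After each library was thinned to 24795819 counts, 19888, 19943 and 20126 genes had at least 1 count in glutamate, against 19689, 19504 and 19536 in medium, again with no overlap (exact permutation p = 0.1).

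The gain was held by fewer genes than the loss. Between the group means, the shares of the genes that gained rose by 11.6 percentage points of the counts in all. The loss of the others is equal to this, since shares have a fixed sum. A lower share therefore need not mean less RNA of that gene. The 10 genes with the largest gain made up 22.7% of the gain, and the 10 with the largest loss 4.49% of the loss. The 100 largest gains made up 47.1% and the 100 largest losses 16.1%. The 1000 largest made up 87.7% of the gain and 53.4% of the loss. These genes were picked by the difference itself, so the shares are a description. Shares of counts do not depend on TMM.

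Among the genes that passed the filter, a smaller set crossed a low floor of level. At a floor of 0.5 CPM, 197 genes were at or above it in all 3 glutamate libraries and under it in all 3 medium libraries, with median levels of 0.899 CPM in glutamate and 0.266 CPM in medium. The opposite pattern was seen for 101 genes, with medians of 0.310 CPM in glutamate and 0.764 CPM in medium. Of these, 186 and 91 passed the edgeR test, but the separation by the floor chose them, so these counts are a description only. The highest mean reached by a gene of the first set was 14.8 CPM in glutamate, and by one of the second 2.19 CPM in medium. With library totals as the scaling the sets held 144 and 143 genes, so their difference in size also rested on the scaling. A floor of 1.0 CPM with TMM gave 203 and 137 genes, and the first set then had a median of 0.536 CPM in medium.

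The 4 genes given by ID had the 2 largest rises and the 2 largest falls among called, non-overlapping genes whose mean reached 1 log2 CPM. The largest rise was that of ENSRNOG00000046667. It had 829.6, 837.0 and 778.3 CPM in glutamate, against 8.27, 9.48 and 12.2 CPM in medium. Every glutamate library lay far above every medium library, and the log2 fold change was 6.35 ± 0.41 (SE; edgeR adjusted p = 5.09e-10). The second rise was that of ENSRNOG00000003745, with 54.5, 63.9 and 64.3 CPM in glutamate, against 0.853, 0.849 and 1.16 CPM in medium. Its log2 fold change was 6.00 ± 0.22 (SE; edgeR adjusted p = 1.3e-14), again with no overlap.

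The largest fall was that of ENSRNOG00000033026, which had 1.38, 1.17 and 0.836 CPM in glutamate, against 8.93, 8.85 and 9.98 CPM in medium. It fell by 3.03 ± 0.16 on the log2 scale (SE; edgeR adjusted p = 1.65e-14), and no library of either group came near the other. ENSRNOG00000029264 had 6.10, 6.46 and 6.65 CPM in glutamate, against 49.3, 43.7 and 50.5 CPM in medium. It fell by 2.90 ± 0.24 (SE; edgeR adjusted p = 1.29e-08). In every alternative tried, all 4 genes kept the direction and the call of their change in IS141 cultures. The standard errors above come from the shared fit. Without DMSO replicate 1 in medium they were 0.146 for ENSRNOG00000046667, 0.121 for ENSRNOG00000003745 and 0.122 for ENSRNOG00000029264. That of ENSRNOG00000033026 was 0.158.

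**Figure D3:**
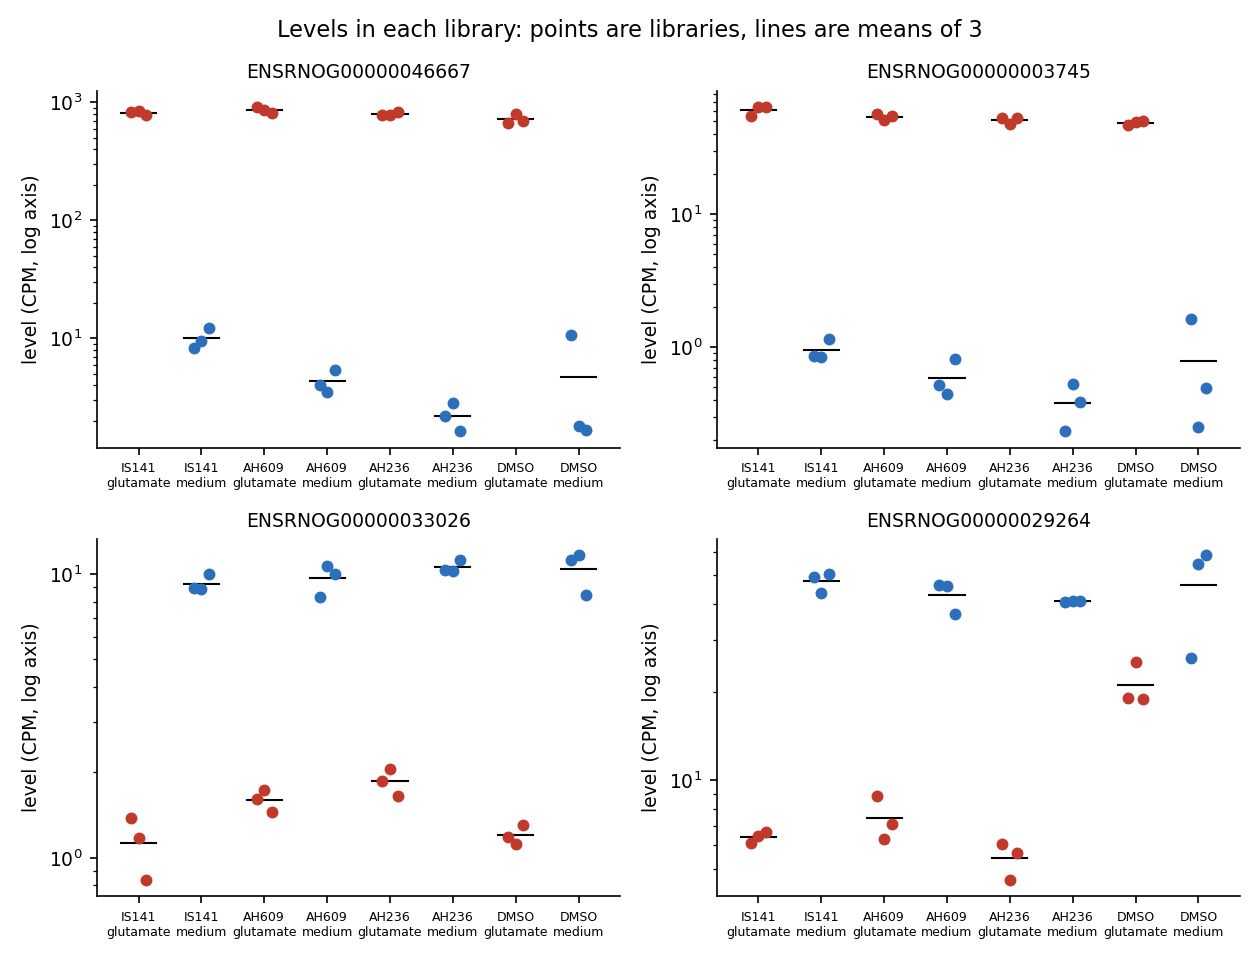
Points are the levels of 4 genes in each of the 24 libraries (CPM, log axis), red for glutamate and blue for medium, and lines are means of 3 libraries. In IS141 cultures the upper genes lie near 815 and 60.9 CPM in glutamate, against 9.99 and 0.954 CPM in medium, and the lower right gene lies at 6.402 CPM in IS141 with glutamate, against 21.1 CPM in DMSO with glutamate.

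Whether these changes were particular to IS141 cultures was asked by comparing glutamate effects, each taken against medium libraries of its own treatment: DMSO, a common solvent, and the agents AH609 and AH236. Most large changes were shared. Of the 1282 genes that rose at least 2-fold with IS141, 1044 (81.4%) were also called higher in all of the other 3 treatments, and of the 833 that fell 689 (82.7%) were also called lower in all 3. Of all genes tested, 23.1% were called higher and 25.0% lower in all 3. Called in the same direction in none of the other 3 were 46 rises and 42 falls, most of them weakly expressed, with a median of -1.33 and -1.29 log2 CPM. Among the 46 rises the difference between glutamate effects passed the test for 0 genes against DMSO and 0 against the 2 other agents. Among the 42 falls it passed for 1 gene in each case.

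Tested directly, the glutamate effect in IS141 cultures differed from that in DMSO cultures for 124 of 15908 genes (0.779%), of which 35 were higher (0.220%) and 89 lower (0.559%) with IS141. Of the 89, 65 were called higher with glutamate in DMSO cultures and 46 in IS141 cultures, while 15 and 33 were called lower. Their median log2 fold change with glutamate was 0.16 with IS141, against 0.59 with DMSO. The 89 were chosen by this difference, so these values only describe them. The count of called genes moved with the libraries fitted. Without DMSO replicate 1 in medium 742 genes were called, 201 higher and 541 lower. With only the IS141 and DMSO libraries fitted, replicate 1 included, 30 were called, 8 higher and 22 lower. Leaving out IS141 replicate 2 in medium gave 82, and leaving out replicates 2 or 3 of IS141 in glutamate gave 68 or 72. Without DMSO replicate 2 in glutamate 71 were called. At an unadjusted p under 0.05 there were 1580 genes.

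The same contrast against the mean of the AH609 and AH236 effects, which uses no DMSO library except for the shared spread, called 134 genes (0.842%), 25 higher (0.157%) and 109 lower (0.685%) with IS141. Of the 109, 99 were called higher with glutamate in AH236 cultures, 89 in AH609 cultures and 79 in IS141 cultures, while 3, 7 and 19 were called lower. The median log2 fold change was 0.70 with IS141, 1.19 with AH609 and 1.41 with AH236, which again describes genes chosen by the difference. Without DMSO replicate 1 in the shared fit 578 genes were called, 121 higher and 457 lower, and with only the 18 libraries compared 637, 152 higher and 485 lower. Leaving out IS141 replicate 1 or 3 in medium gave 88 or 64 genes, and leaving out IS141 replicate 3 in glutamate gave 62. In both contrasts, genes with a lower effect in IS141 cultures outnumbered those with a higher one under every alternative run.

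To follow the response in genes that IS141 libraries had not chosen, genes that glutamate changed at least 2-fold in DMSO cultures were taken. Of 1268 genes raised there, 1135 were called higher and 0 lower in IS141 cultures, where 28.9% of all genes tested were called higher. Their median log2 fold change was 1.53 with IS141, 1.70 with AH609 and 1.73 with AH236, against about 0 for all genes. The 3 glutamate libraries of IS141 were close to one another, with medians of 1.46, 1.47 and 1.47 above the mean of the medium libraries, which themselves lay at -0.04, 0.01 and 0.03. Of 771 genes lowered in DMSO cultures, 667 were called lower and 0 higher with IS141 (30.3% of all genes), with a median of -1.16 with IS141, -1.25 with AH609 and -1.27 with AH236. Both groups of genes thus had a median nearer to 0 with IS141 than with either other agent.

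**Figure D4:**
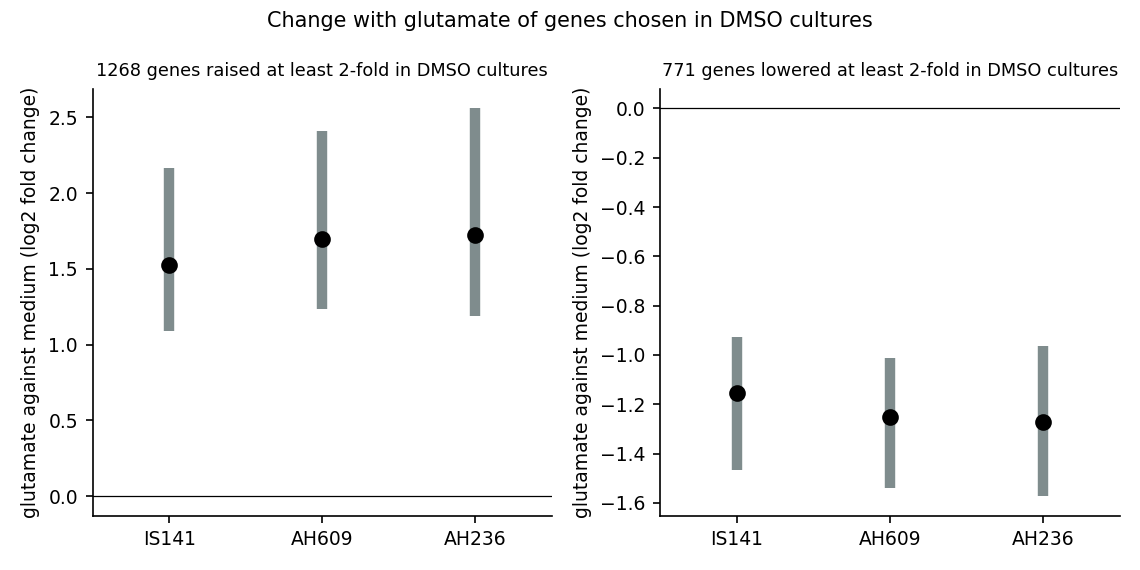
Dots are medians and bars run between the lower and upper quartile of the log2 fold changes in glutamate against medium, for genes chosen as raised (left) or lowered (right) at least 2-fold in DMSO cultures. The median of the raised genes was 1.53 with IS141, 1.70 with AH609 and 1.73 with AH236.

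In the direct contrast with the other agents, 57 of the 1268 raised genes were called lower with IS141 and 0 higher, where 0.685% and 0.157% of all genes were, and the median difference in the glutamate effect was -0.20. Without DMSO replicate 1 the group, chosen anew, held 1443 genes, of which 241 were called lower and 0 higher, with a median difference of -0.22. In that fit 457 of all 16119 genes were called lower and 121 higher. With library totals as the scaling the group held 1002 genes, with 54 called lower, 0 higher and a median of -0.25. Of all 15908 genes, 125 were then called lower and 15 higher. For the raised genes, the levels with IS141 and with the other agents differed mainly in medium. There the 1268 raised genes were a median of 0.17 log2 CPM higher with IS141 than with the mean of AH609 and AH236. The single IS141 libraries gave 0.16, 0.20 and 0.18. Of these raised genes, 62.5% were above both agents, against 38.8% of all genes. In glutamate the median difference was -0.02, with 0.01, -0.01 and -0.06 in the single libraries. Of the 771 lowered genes, 5 were called higher and 0 lower with IS141 in the contrast, and the median difference was 0.09. There were 21 higher and 3 lower of 750 genes without DMSO replicate 1, where 121 and 457 of all 16119 genes were. With library totals 3 were higher and 5 lower of 1312 genes, where 15 and 125 of all 15908 genes were. The median difference was then 0.07. The median difference in level of the 771 genes from the other agents was 0.04 log2 CPM in glutamate and -0.05 in medium.

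Genes raised at least 2-fold in both AH609 and AH236 cultures, 1199 in number, allowed the comparison with DMSO cultures. Their median log2 fold change was 1.56 with IS141 and 1.57 with DMSO. The difference had a median of -0.04, with 26 genes called lower and 2 higher, where 0.559% and 0.220% of all genes were. Without DMSO replicate 1 the median difference was -0.24, with 209 called lower and 8 higher of 1220 genes. Of all 16119 genes in that fit, 541 were called lower and 201 higher. The 700 genes lowered with both agents had medians of -1.19 with IS141 and -1.16 with DMSO.

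The 4 genes by ID did not all follow the same pattern. ENSRNOG00000046667 reached 815 ± 32.0 CPM in IS141 with glutamate, 863 ± 54.2 in AH609, 796 ± 25.2 in AH236 and 725 ± 68.7 in DMSO (SD, n = 3 each). In medium it stood at 9.99 ± 2.03 CPM with IS141, above 4.33 ± 0.983 with AH609 and 2.21 ± 0.596 with AH236, and above 4.73 ± 5.16 with DMSO, whose replicate 1 was at 10.7 CPM and the others at 1.82 and 1.69. The log2 glutamate effect with IS141 minus that with the 2 other agents was -1.71 ± 0.47 (SE), which did not pass the edgeR test in the fit of all libraries (adjusted p = 0.126). It passed without DMSO replicate 1 in the fit (adjusted p = 1.86e-05) and with the compared libraries alone (adjusted p = 0.00016), and in no other alternative run, where adjusted p reached 0.351. Against DMSO the difference was -0.91 ± 0.53 (SE; edgeR adjusted p = 0.636), and -2.34 without DMSO replicate 1 (adjusted p = 2.91e-05), with adjusted p up to 0.899 in the other alternatives.

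For ENSRNOG00000029264 the IS141 and DMSO cultures stood apart in glutamate, and their ranges overlapped in medium. With glutamate it had 6.402 ± 0.280 CPM in IS141, 7.42 ± 1.304 in AH609, 5.43 ± 0.771 in AH236 and 21.1 ± 3.60 in DMSO (SD, n = 3 each). In medium it had 47.8 ± 3.64 CPM with IS141, 43.0 ± 5.37 with AH609, 40.8 ± 0.142 with AH236 and 46.5 ± 17.8 with DMSO. DMSO replicate 1 was at 26.1 CPM in medium. The others, at 54.8 and 58.6, lay above every IS141 library in medium, so the overlap came through replicate 1. No glutamate library of DMSO, at 19.1, 25.3 and 19.0 CPM, came within the range of the IS141 libraries. Its fall was larger with IS141 than with DMSO, with a log2 difference of -1.76 ± 0.32 (SE; edgeR adjusted p = 0.0126). The gene was chosen by its fall in IS141 cultures, so the size of this difference can be overstated. The call was lost when only the IS141 and DMSO libraries were fitted (adjusted p = 0.223) and held in every other alternative run, also without DMSO replicate 1, at a difference of -1.47 (adjusted p = 6.08e-06). Against AH609 and AH236 the difference was -0.19 ± 0.30 (SE; edgeR adjusted p = 0.906). For the other 2 genes neither difference passed the test, with adjusted p-values of 0.991 and 0.541 for ENSRNOG00000003745 and 0.975 and 0.371 for ENSRNOG00000033026.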

How the data were processed

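A single table of raw counts, whole numbers per Ensembl gene in 24 libraries, is what the authors deposited. RNA came from RNeasy columns and the library kit was strand-specific (NEBNext Ultra II), per the labels' protocols. The submitters' processing notes name bcl2fastq, cutadapt 2.3, FastQC 0.11.8, STAR 2.7.8a, RSEM 1.3.3 and Rnor_6.0. Their settings are not stated. RSEM estimates counts, so the values may be rounded estimates, and genes that share reads with near-identical or overlapping genes are uncertain.

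Of 32754 gene rows, 15908 passed filterByExpr. TMM factors, robust dispersions and the quasi-likelihood F test of edgeR 4.0.16 (R 4.3.3) were used in 1 fit of all libraries with 1 mean per group. Benjamini-Hochberg adjustment covered every gene in the fit. The standard error given is the one that yields the test's p. CPM are TMM scaled, and log2 CPM use a prior count of 2. The fit was tested on simulated counts, with changes set only in genes above 1 log2 CPM. For glutamate against medium in IS141, 22 of 50 changes of 1.25-fold and 49 of 50 of 2-fold were recovered. For the contrast with DMSO, 11 of 50 and 41 of 50 were. In the IS141 simulation few genes changed with glutamate, unlike in the data, so it does not test the scaling. DESeq2 1.42.0 was an alternative.

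The comparison, gene groups and tests were chosen with earlier results of these data known. 0 IDs had a symbol, so the 42 gene lists, marker sums and promoter motifs planned were not used, and the rule for named genes was applied without its symbol condition and kept to 2 rises and 2 falls. The rule ranked called, non-overlapping genes whose mean reached 1 log2 CPM by log2 fold change. Library totals ran from 22509400 to 35496447 counts.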

Additional observations from a re-analysis of the deposited data

Results flagged for a closer look

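The glutamate effect in IS141 cultures differed by the interaction test from that in DMSO cultures for 124 genes and from the mean of the AH609 and AH236 effects for 134 genes. Both counts moved with the libraries fitted. They were 742 and 578 without DMSO replicate 1 in medium, and 30 and 637 with the compared groups alone. Among the genes given by ID, ENSRNOG00000029264 fell more with glutamate in IS141 than in DMSO cultures by the interaction test, with a log2 difference of -1.76 that was not called when only those libraries were fitted. It had been chosen by its fall in IS141 cultures, so the size of this difference can be overstated. Single genes were not searched for outlying libraries, since groups hold 3 libraries.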

How the results depend on the processing

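For glutamate against medium in IS141 cultures, no alternative moved the number of called genes by more than 1.5 times, and leaving out 1 of the 6 IS141 libraries gave 8660 to 8845. Without DMSO replicate 1 in the shared fit it was 9999. With library totals as the scaling 2854 genes rose, and 1382 fell at least 2-fold. The 2 contrasts of glutamate effects moved more. With library totals 23 genes were higher than in DMSO cultures and 15 higher than with AH609 and AH236. With the compared groups fitted alone, 30 genes differed from DMSO (8 higher, 22 lower) and 637 from the other agents (152 higher, 485 lower). Without DMSO replicate 1 in medium, 578 differed from the other agents (121 higher, 457 lower). DESeq2 called 208 against DMSO (56 higher, 152 lower) and 250 against the agents (55 higher, 195 lower). Leaving out 1 library gave 68 to 742 genes against DMSO, 14 to 201 higher and 53 to 541 lower, where the upper ends are without DMSO replicate 1 in medium. Leaving out 1 of the 18 libraries of IS141, AH609 and AH236 gave 62 to 123 against the agents, 7 to 21 higher and 55 to 105 lower. The cause of these shifts was not tested. Deviations of same-numbered libraries correlated at -0.05, -0.02 and 0.08, within the range of -0.13 to 0.15 of differently numbered ones. Deviations from a mean of 3 libraries are tied together, so these values do not decide whether the libraries were paired. A replicate block called 9676 genes in IS141 cultures, and 53 were then higher than in DMSO cultures. Gene lists, marker sums and promoter motifs were not run, since no ID had a symbol. Weakly expressed genes were measured less precisely, with a median standard error of 0.354 in the lowest level class and 0.0567 in the highest.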
